A study of Mus musculus with 15 samples.

Results

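The mouse major histocompatibility complex, called H2, is a gene cluster on chromosome 17. It was examined here through its 39 protein-coding members: genes annotated on that chromosome whose symbol begins with H2-, together with Tap1, Tap2 and Tapbp. They were drawn from 22350 protein-coding genes of chromosomes 1 to 19 and X. Of the members, 25 encode class I heavy chains and their relatives, 9 encode class II chains, 3 encode proteins that load peptide on class I, and 2, H2-Ke2 and H2-Ke6, carry the prefix for their position only. The class I genes comprise the classical H2-K1 and H2-D1, 6 of the Q group, 5 of the T group and 12 of the M group. A pair of gene models share the symbol H2-Q2 and are told apart by their identifiers, ENSMUSG00000079507 and ENSMUSG00000091705. The rule used symbols and position, and no measured value.

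Class I molecules display peptides from inside the cell to CD8+ T cells and are made by most nucleated cells. Tap1 and Tap2 form the pump that carries those peptides into the endoplasmic reticulum, and tapasin, the product of Tapbp, bridges the pump to empty class I. Class II molecules display peptides from endocytosed protein to CD4+ T cells, are made by B cells, dendritic cells, macrophages and thymic epithelium, and depend on the coactivator Ciita. Mouse T cells do not make class II, and double-positive thymocytes carry less class I at the surface than mature T cells do.

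The data are ChIP-seq peak lists from CD69-negative CD4+CD8+ thymocytes of wild type C57BL/6 mice, with no treatment named and no age given. There was 1 list for CTCF, a DNA-binding protein at which cohesin is held, 2 for Rad21, which closes the ring of cohesin, and 2 for H3K27ac, a histone mark of active promoters and enhancers. The series has 15 samples, and its 8 Hi-C and 2 input samples were not analysed here. Whether the replicates are separate animals is not labelled, and their spread may be technical. CTCF has no replicate.

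The lists held 38700 and 24765 H3K27ac peaks, 38430 and 48462 Rad21 peaks and 35345 CTCF peaks. Library depth is unknown, because the lists give no reads. A height is the authors' fold enrichment of a peak over background. A region was called shared when peaks of both replicates overlapped, and a promoter was the 2000 bp on either side of any annotated transcription start site (TSS). In these bulk cells, a mark in few cells and a weak mark in all cells cannot be told apart. All 12 marker genes of double-positive thymocytes had shared H3K27ac at the promoter, against 1 of 8 thymic epithelial markers (Ccl25). The B cell markers Cd79b and Blk also had it, and the macrophage markers Itgam, Csf1r and Cd14 did not. What cells of those kinds add to the H2 peaks was not tested.

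Fewer than 1 in 2 H2 promoters carried any of the 3 marks, a share close to that of all protein-coding genes. Shared H3K27ac was at 15 of 39 members (38.5%), against 41.5% of all protein-coding genes. Shared Rad21 was at 9 members (23.1%), against 31.5%, and CTCF at 10 (25.6%), against 26.4%. None of the 3 marks was present at 21 members (53.8%), against 49.1% of all genes. All 3 were present at 5 members, H2-T23, H2-Oa, Tapbp, Tap1 and Tap2, against a background of 15.0%. Of the 1052 other genes of chromosome 17, 43.8% had shared H3K27ac, 31.7% shared Rad21 and 24.7% CTCF. The 153 other genes that lie between the first and last member had shared H3K27ac in 81 cases, shared Rad21 in 63 and CTCF in 39.

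CTCF was at 2 of 25 class I promoters and at 4 of 9 class II promoters, at 1 of each class within 500 bp of a TSS, and at 10 class I and 5 class II genes within 5000 bp. Shared H3K27ac was at 7 of 25 class I genes and 3 of 9 class II genes, and shared Rad21 at 4 of 25 and 2 of 9. Within 5000 bp, shared H3K27ac was at 7 class I and 5 class II genes. Rad21 regions free of CTCF were at 3 class I promoters and at 0 class II promoters, against 17% of all genes. The 3 class I genes with such a region (H2-Q2 ENSMUSG00000091705, H2-Q4 and H2-T24) had H3K27ac and Rad21 but no CTCF, a combination at 0 class II genes and at 10.3% of all genes. None of the 3 marks was found at 18 class I genes and at 3 class II genes. The M group set much of the class I figure. Without it, 6 of 13 class I genes had shared H3K27ac, 4 had shared Rad21 and 1 had CTCF. No test was run between the classes, because genes of the same libraries are not replicates and neighbours can share a peak.

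**Figure D1:**
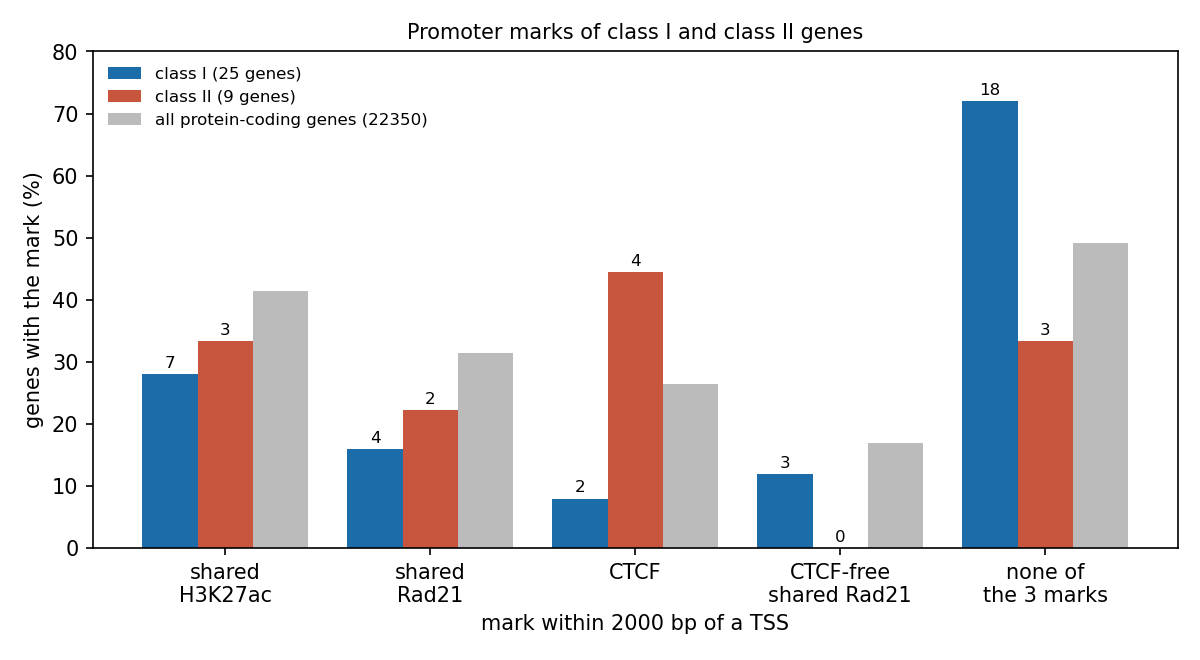
Share of genes with each mark within 2000 bp of a TSS, for 25 class I genes (blue), 9 class II genes (red) and 22350 protein-coding genes (grey), with the number of genes above each coloured bar. CTCF is at 2 class I and 4 class II genes, and 18 class I genes have none of the 3 marks.

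Many of the peaks behind these counts were low. When only Rad21 and CTCF peaks with −log10 q from 5 upward were kept, 1 class I gene (H2-T24) and 2 class II genes (H2-Oa and H2-DMa) had shared Rad21, and CTCF was at 1 class I gene (H2-T23) and 3 class II genes. With a Rad21 replicate left out, every peak of the other list counted and no overlap was needed. In this way the Rad21 count was 7 for class I without replicate 2, and 4 for class II without replicate 1. When H3K27ac peaks with −log10 q under 1.3 were dropped, H3K27ac was left at 3 class I genes and 0 class II genes.

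H2-K1 and H2-D1 encode the classical class I molecules K and D. H2-K1 (chr17:34132962-34137278, minus strand, mm9) had no peak of any list within 2000 bp of its TSSs. The nearest H3K27ac peaks lay 14964 and 14956 bp away in replicates 1 and 2, the nearest shared Rad21 region 3141 bp and the nearest CTCF peak 3235 bp. H2-D1 (chr17:35399675-35404444, plus strand) had H3K27ac in both replicates, with folds of 1.62 and 1.83, which exceeded 9.62% and 13.4% of the peaks in their lists. Their −log10 q was 0.753 and 0.148, so H2-D1 lost this call when H3K27ac peaks under 1.3 were dropped. It had Rad21 in replicate 1 only, with a fold of 3.90, and no CTCF.

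The upstream sequence of H2-K1 is shown because it has no peak and yet shares its elements with H2-D1. RefSeq gives more than 1 start for H2-K1, and the 250 bases before the start at the annotated TSS are printed (chr17:34137279-34137528, minus strand, matched exactly to NCBIM37, the assembly that mm9 displays). Capitals mark an NF-kB-like GGGATTCC, an interferon response (ISRE)-like TTTCNNTTC, a site alpha TGACG and Y boxes (ATTGG, read as CCAAT on the other strand), each searched on both strands.
H2-K1: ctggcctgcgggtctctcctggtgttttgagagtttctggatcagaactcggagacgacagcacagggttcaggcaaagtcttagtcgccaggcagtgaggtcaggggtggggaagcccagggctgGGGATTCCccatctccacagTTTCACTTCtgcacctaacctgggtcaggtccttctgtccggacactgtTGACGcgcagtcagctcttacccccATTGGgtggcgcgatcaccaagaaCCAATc

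Aligned without gaps at the best shift, 166 of 190 bases (87.4%) were identical between the upstream sequences of H2-K1 and H2-D1. The H2-K1 sequence compared here was that before its other RefSeq start (chr17:34137293-34137542, minus strand), which overlaps the printed one. Identity with H2-K1 was 75.0% for H2-Q6, 68.1% for H2-Q10, 63.1% for H2-Q4 and 50.4% for H2-Q7. In the pieces below, H2-Q7 lacks a base that H2-Q6 has between the NF-kB-like and ISRE-like letters. Without gaps, bases on one side of it are compared out of step, so the H2-Q7 value may be too low. The same holds for H2-Q4 and H2-Q10. H2-Q4 lacks a run of bases that H2-K1 has just before the NF-kB-like letters. H2-Q10 has extra bases after the ISRE-like letters. Identity was 38.8% for H2-M3, 31.8% for H2-T23 and 29.7% for H2-T22. The identity that unrelated sequences reach at their best shift was not computed. The 29 bases that end with the ISRE-like letters are given for the 8 class I genes that hold them (capitals as above).
H2-K1: GGGATTCCccatctccacagTTTCACTTC
H2-D1: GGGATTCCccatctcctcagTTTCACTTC
H2-Q4: gggatttcccatctccccagTTTCACTTC
H2-Q6: GGGATTCCccatctccccagTTTCACTTC
H2-Q7: gGGGATTCCcatctccccagTTTCACTTC
H2-Q10: aggactccccatctccccagTTTCACTTC
H2-M3: ttcccccatttcctctgaggTTTCACTTC
H2-M2: aattcctcacaatcctggagTTTCCCTTC

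H2-K1, H2-D1, H2-Q6 and H2-Q7 were the 4 class I genes with the NF-kB-like letters, and H2-D1 alone among these 4 had H3K27ac. H2-Q4, which has H3K27ac and Rad21, lacks those exact letters in this window. Over the 22 class I genes with a RefSeq promoter, the NF-kB-like letters were in 4, the ISRE-like letters in 8, TGACG in 11 and a Y box in 19. Of 32851 RefSeq promoters cut to the same length, 0.889%, 6.31%, 17.8% and 33.8% held them. A match of letters is a description of the sequence and not of binding.

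In the Q group, whose best known products are the Qa-2 antigens, marks were at 2 of 6 genes. H2-Q4 (chr17:35516562-35522235) had H3K27ac folds of 2.34 and 3.19 and Rad21 folds of 4.72 and 6.21. The H2-Q2 model ENSMUSG00000091705 (chr17:35479187-35483707) had H3K27ac folds of 2.37 and 3.04 and Rad21 folds of 3.90 and 6.78. Both promoters were free of CTCF, and both had H3K27ac and Rad21 in each replicate. The other H2-Q2 model, ENSMUSG00000079507 (chr17:35457350-35462044), had a single H3K27ac peak, in replicate 1, with a fold of 2.03. H2-Q6, H2-Q7 and H2-Q10, which encodes a class I protein secreted by the liver, had no peak within 2000 bp. CTCF peaks lay 3995 bp from H2-Q6, 4007 bp from H2-Q7 and 4109 bp from H2-Q10.

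Class I promoter windows with much repeated sequence were found both without peaks and with them. Of the 50-base words in the promoter windows, 41.3% at H2-Q6 and 37.0% at H2-Q7 occur once in the genome. The median was 86.1% over the 25 class I genes, 98.2% over the 9 class II genes and 97.8% over the 1052 other genes of chromosome 17. H2-K1 had 86.1% and H2-D1 89.6%. H2-T23, which did have peaks in all 5 lists, had 60.2%, and H2-T22, which also had peaks, had 66.7%. H2-T9, which had no peak within 2000 bp, had 54.9%. How reads with several matches were treated is not given in the sources used here, and the part of repeats in the missing peaks was not tested.

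The T group had shared H3K27ac at 3 of 5 genes. When H3K27ac peaks with a −log10 q under 1.3 were dropped, H2-T24 alone kept it, since the values were 0.763 and 0.650 at H2-T23 and 0.687 and 0.332 at H2-T22. H2-T23 (chr17:36166718-36169800, minus strand) encodes Qa-1, which is read by inhibitory receptors of natural killer cells. It was the only class I gene with peaks in all 5 lists, with H3K27ac folds of 1.70 and 1.81, Rad21 folds of 7.42 and 5.27 and a CTCF fold of 6.66. H2-T24 (chr17:36142640-36157505, minus strand) had the highest H3K27ac fold of any class I gene in replicate 1, 3.60, beside 2.87 in replicate 2. Its Rad21 folds of 5.33 and 9.95 came without CTCF. H2-T22 (chr17:36174073-36179692, minus strand), whose product binds some gamma delta T cell receptors, had low H3K27ac folds of 1.33 and 1.91 and a Rad21 fold of 6.07 in replicate 1 only. A TSS of the neighbour Gm6034 lies 214 bp from that of H2-T22, so the peaks cannot be given to either gene. H2-T9 and H2-T3, the gene of the thymus leukaemia antigen, had no peak within 2000 bp.

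In the M group, 11 of 12 genes had no peak of any list. These were H2-M10.1, H2-M10.2, H2-M10.3, H2-M10.4, H2-M10.5, H2-M10.6, H2-M11, H2-M9, H2-M1, H2-M5 and H2-M2. Their nearest shared H3K27ac region lay between 9835 bp (H2-M10.2) and 270420 bp (H2-M11) away. The exception, H2-M3 (chr17:37407165-37411429), encodes a class I molecule that displays N-formylated peptides. It had H3K27ac folds of 1.85 and 5.74, a Rad21 fold of 3.73 in replicate 1 only, and a CTCF fold of 2.18 with a −log10 q of 0. The median share of 50-base words found once was 93.3% in this group. Olfactory receptor genes lie among the M genes, and 16 of 16 in the locus lacked all 3 marks.

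**Figure D2:**
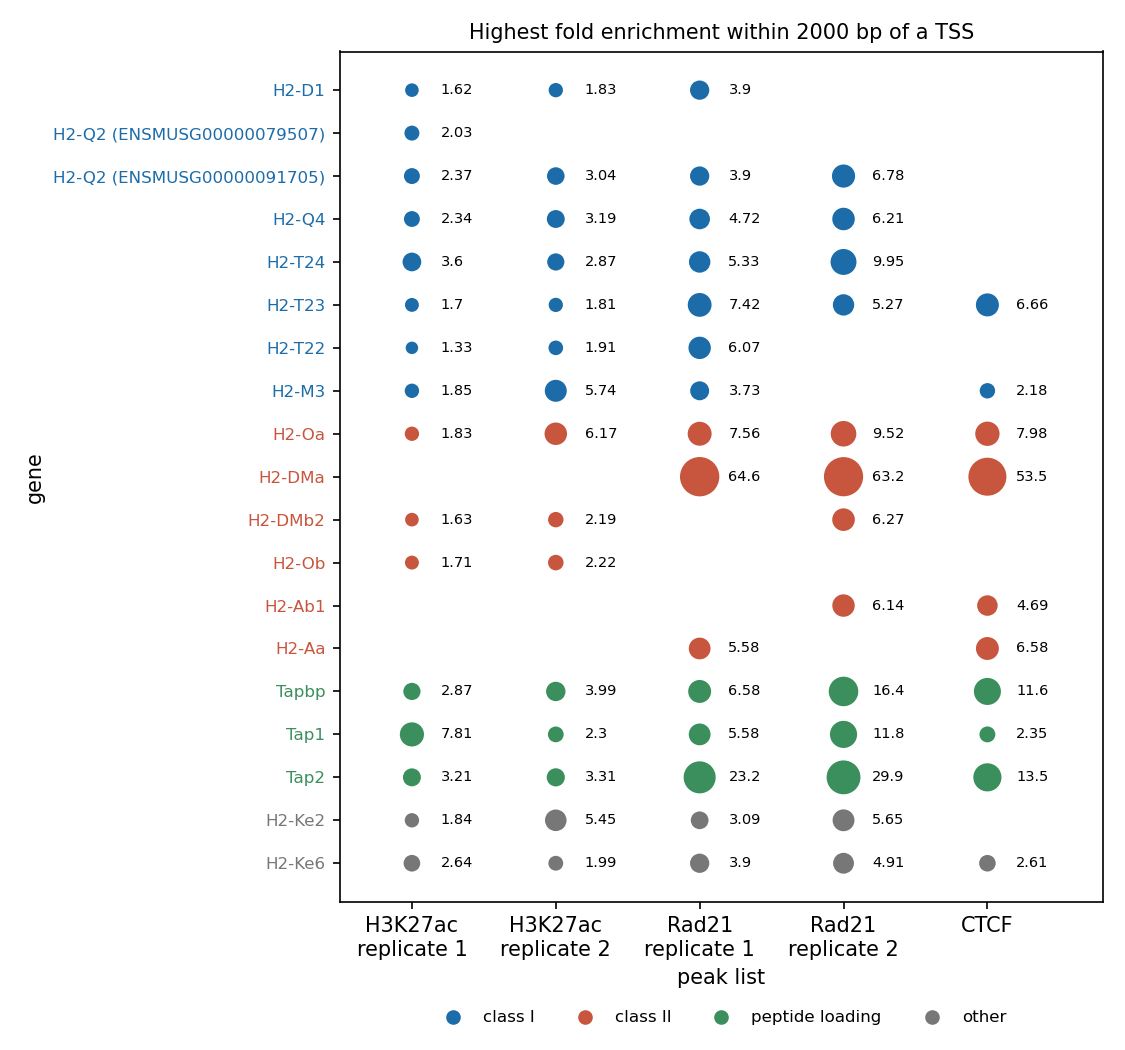
Highest fold enrichment within 2000 bp of a TSS in each of the 5 peak lists (columns) for the 19 members with a peak in any list (rows), coloured by class, with dot area growing with the fold and the fold printed beside each dot. No dot means no peak, and H2-DMa stands out with Rad21 folds of 64.6 and 63.2 and a CTCF fold of 53.5 without H3K27ac.

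The strongest promoter site of the members was at a class II gene without H3K27ac. H2-DMa (chr17:34272127-34276046) encodes the alpha chain of H2-DM, which exchanges peptides on class II. Its Rad21 folds were 64.6 and 63.2, above 99.7% and 99.2% of the peaks in their lists, and its CTCF fold was 53.5, above 99.9%. The CTCF summit lay 211 bp from the TSS, in an exon annotated as UTR. The nearest shared H3K27ac region was 4254 bp away. The sequence at this summit is shown beside those of some other CTCF peaks of the locus. CTCF was at 4 of the 9 class II promoters. Of these, the peaks at H2-DMa and H2-Aa are shown, and those at H2-Oa and H2-Ab1 are not. Capitals mark the match to the CTCF core consensus, given on the strand of the motif with 8 bases on either side.
H2-DMa promoter: ccgaccttCCACCAGGGGGCGgaggtctc
near H2-Ob: ttacatggCCACCAGATGGCAccagactc
H2-Aa intron: aaactgtaCCAGCAGGGGGCAgcgtgcag
Tap2 promoter: cacagccgCCAGCAGATGGCGcctgtcaa
Tapbp intron: cgttctgcCCACTAGAGGCCActgttgag
near Olfr94: tcatttagCCACAAGGTGGCAgcatgaac
The H2-DMa motif (chr17:34272364-34272376, plus strand) has 0 mismatches, as have those near H2-Ob (chr17:34372114-34372126), in H2-Aa (chr17:34422985-34422997) and at Tap2 (chr17:34341397-34341409), all on the minus strand. Those in Tapbp (chr17:34057886-34057898) and near Olfr94 (chr17:37340762-37340774), also on the minus strand, have 1.

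H2-Oa and H2-Ob encode the chains of H2-O, which holds back H2-DM. H2-Oa (chr17:34229285-34232179) was the only class II gene with all 3 marks. Its H3K27ac folds were 1.83 and 6.17, its Rad21 folds 7.56 and 9.52 and its CTCF fold 7.98. The Rad21 and CTCF summits lay over 1000 bp upstream, and within 500 bp of a TSS H3K27ac was the only shared mark. H2-Ob (chr17:34375848-34390850) had H3K27ac alone, with folds of 1.71 and 2.22. H2-DMb2, which encodes a beta chain of H2-DM (chr17:34280252-34288498), had H3K27ac folds of 1.63 and 2.19 and a Rad21 fold of 6.27 in replicate 2 only. At each of these 3 genes the −log10 q was below 1.3 in at least 1 of the H3K27ac lists.

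The classical class II genes lacked H3K27ac. H2-Ab1 and H2-Aa, which encode the chains of I-A, had no H3K27ac peak in either replicate, and their nearest shared H3K27ac regions lay 23367 and 41892 bp away. H2-Ab1 (chr17:34400154-34406363) had a CTCF fold of 4.69 and a Rad21 fold of 6.14 in replicate 2 only, which did not touch each other. H2-Aa (chr17:34406276-34424772, minus strand) had a CTCF fold of 6.58 and a Rad21 fold of 5.58 in replicate 1 only. Both CTCF peaks were inside the gene, with summits 988 and 1729 bp from the TSS. H2-Eb1, which encodes the beta chain of I-E, H2-Eb2 and H2-DMb1 had no peak of any list within 2000 bp.

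Upstream sequence is shown for a class II gene with H3K27ac (H2-Ob) and for genes without it (H2-Aa and H2-Eb1), since the letters of known class II elements were searched in both. Bases 100 to 11 before the RefSeq start are given, with capitals for the X1-like CCTAGNNAC, the X2 TGACG on either strand and the Y box on either strand.
H2-Ob (chr17:34375750-34375839, plus strand): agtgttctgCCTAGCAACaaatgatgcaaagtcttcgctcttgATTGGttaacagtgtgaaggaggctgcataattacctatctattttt
H2-Aa (chr17:34424779-34424868, minus strand): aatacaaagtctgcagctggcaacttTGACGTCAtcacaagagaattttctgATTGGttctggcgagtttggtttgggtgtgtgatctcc
H2-Eb1 (chr17:34442712-34442801, plus strand): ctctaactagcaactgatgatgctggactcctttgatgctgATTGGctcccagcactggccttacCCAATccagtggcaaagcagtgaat
A Y box was in 7 of 7 class II genes with a RefSeq promoter within 2000 bp of an annotated TSS, the X1-like letters in 2 and TGACG in 1, while 0 held the NF-kB-like or the ISRE-like letters. Of all RefSeq promoters 33.8% held a Y box, 3.37% the X1-like letters and 17.8% TGACG. Both RefSeq promoters of H2-DMa start 9664 and 12350 bp from its nearest annotated TSS and were not counted.

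Each of the 3 peptide loading genes had H3K27ac, Rad21 and CTCF within 2000 bp of a TSS. With only the TSS at the 5′ end of each gene, each mark was at Tap1 and Tap2 (2 of 3) and Tapbp had none. Tap1 lost shared H3K27ac when H3K27ac peaks with a −log10 q under 1.3 were dropped, its value being 0.382 in replicate 2. Tap2 (chr17:34340472-34353266) had H3K27ac folds of 3.21 and 3.31. The summits of those peaks lay more than 2000 bp upstream of its nearest TSS, and the replicate 1 peak also covers a TSS of Psmb8. Peaks with a summit within 2000 bp had folds of 2.05 in replicate 1 and of 2.00 and 2.02 in replicate 2. Their −log10 q was 1.45 in replicate 1 and 0.721 and 0.826 in replicate 2. Tap2 had Rad21 folds of 23.2 and 29.9 and a CTCF fold of 13.5. Its Rad21 peaks stood above 88.0% and 91.6% of their lists, and CTCF and Rad21 summits lay within 126 bp upstream of a TSS. Tapbp (chr17:34052844-34066235) had H3K27ac folds of 2.87 and 3.99, Rad21 folds of 6.58 and 16.4 and a CTCF fold of 11.6. Tap1 (chr17:34324498-34334170) had H3K27ac folds of 7.81 and 2.30 and Rad21 folds of 5.58 and 11.8. Its CTCF peak was low, with a fold of 2.35 and a −log10 q of 0. These promoters are not theirs alone. A TSS of Psmb9, a subunit of the immunoproteasome, lies 18 bp from that of Tap1, one of Zbtb22 lies 5 bp from that of Tapbp, and one of Gm20496 lies 128 bp from that of Tap2.

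H2-Ke2, which encodes a prefoldin subunit, and H2-Ke6, which encodes a hydroxysteroid dehydrogenase, are no antigen-presenting genes. H2-Ke2 (chr17:34075766-34077288, minus strand) had H3K27ac folds of 1.8404 and 5.45, and H2-Ke6 (chr17:34162978-34165005, minus strand) had 2.64 and 1.99. The summit of the 2.64 peak lay 2101 bp from the nearest TSS, and the replicate 1 peak with a summit 187 bp from it had a fold of 1.44. Neither gene kept shared H3K27ac when H3K27ac peaks with −log10 q under 1.3 were dropped. Each gene had a Rad21 peak in both replicates, with folds of 3.09 and 5.65 at H2-Ke2 and of 3.90 and 4.91 at H2-Ke6. The peaks of the replicates did not overlap, so neither gene had shared Rad21. H2-Ke6 also had a CTCF fold of 2.61 with a −log10 q of 0. A TSS of Wdr46 lies 317 bp from that of H2-Ke2.

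By height, the median class I peak was below the median of all genes with the same mark in each Rad21 and H3K27ac list. Among class I genes with shared Rad21, the median folds of both replicates were 5.03 and 6.49, against 8.34 and 9.95 over all genes with shared Rad21. The peptide loading genes had medians of 6.58 and 16.4, below all genes in replicate 1 and above them in replicate 2. For H3K27ac, class I medians were 1.85 and 2.87 and class II medians 1.71 and 2.22, against 2.93 and 3.05 over all genes with shared H3K27ac. The H3K27ac ranks differed between replicates for some genes. H2-Oa stood above 19.9% of the list in replicate 1 and above 86.4% in replicate 2, and H2-M3 above 20.8% and 84.4%. The ratio of Rad21 folds, replicate 1 over replicate 2, was 0.401 to 1.41 over the 9 members with shared Rad21, with a median of 0.761, against a median of 0.852 over all shared regions.

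Between the first and the last member lie 3568 kb (chr17:34052844-37620497), and peaks were dense there. Genes were dense there as well, with 39 members and 153 other protein-coding genes, of 22350 over chromosomes 1 to 19 and X. The densities per Mb were not adjusted for the number of genes. The locus had 23.5 shared H3K27ac regions, 50.2 shared Rad21 regions and 47.1 CTCF peaks per Mb, against 6.15, 11.7 and 13.4 per Mb over chromosomes 1 to 19 and X, and 8.40, 15.6 and 16.4 per Mb over chromosome 17. Of its 179 shared Rad21 regions, 122 (68.2%) overlapped CTCF, against 65.9% of the regions elsewhere, and 84 (46.9%) in shared H3K27ac, against 36.9%. Of its 168 CTCF peaks, 122 (72.6%) held shared Rad21, against 58.2% of all 35345 CTCF peaks. A CTCF motif was in 136 (81.0%), 68 on each strand, against 72.4% of all CTCF peaks. When every list was cut at −log10 q of 5, the densities of H3K27ac were 2.80 per Mb in the locus and 0.708 per Mb in the genome, and those of CTCF 30.6 and 6.76.

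**Figure D3:**
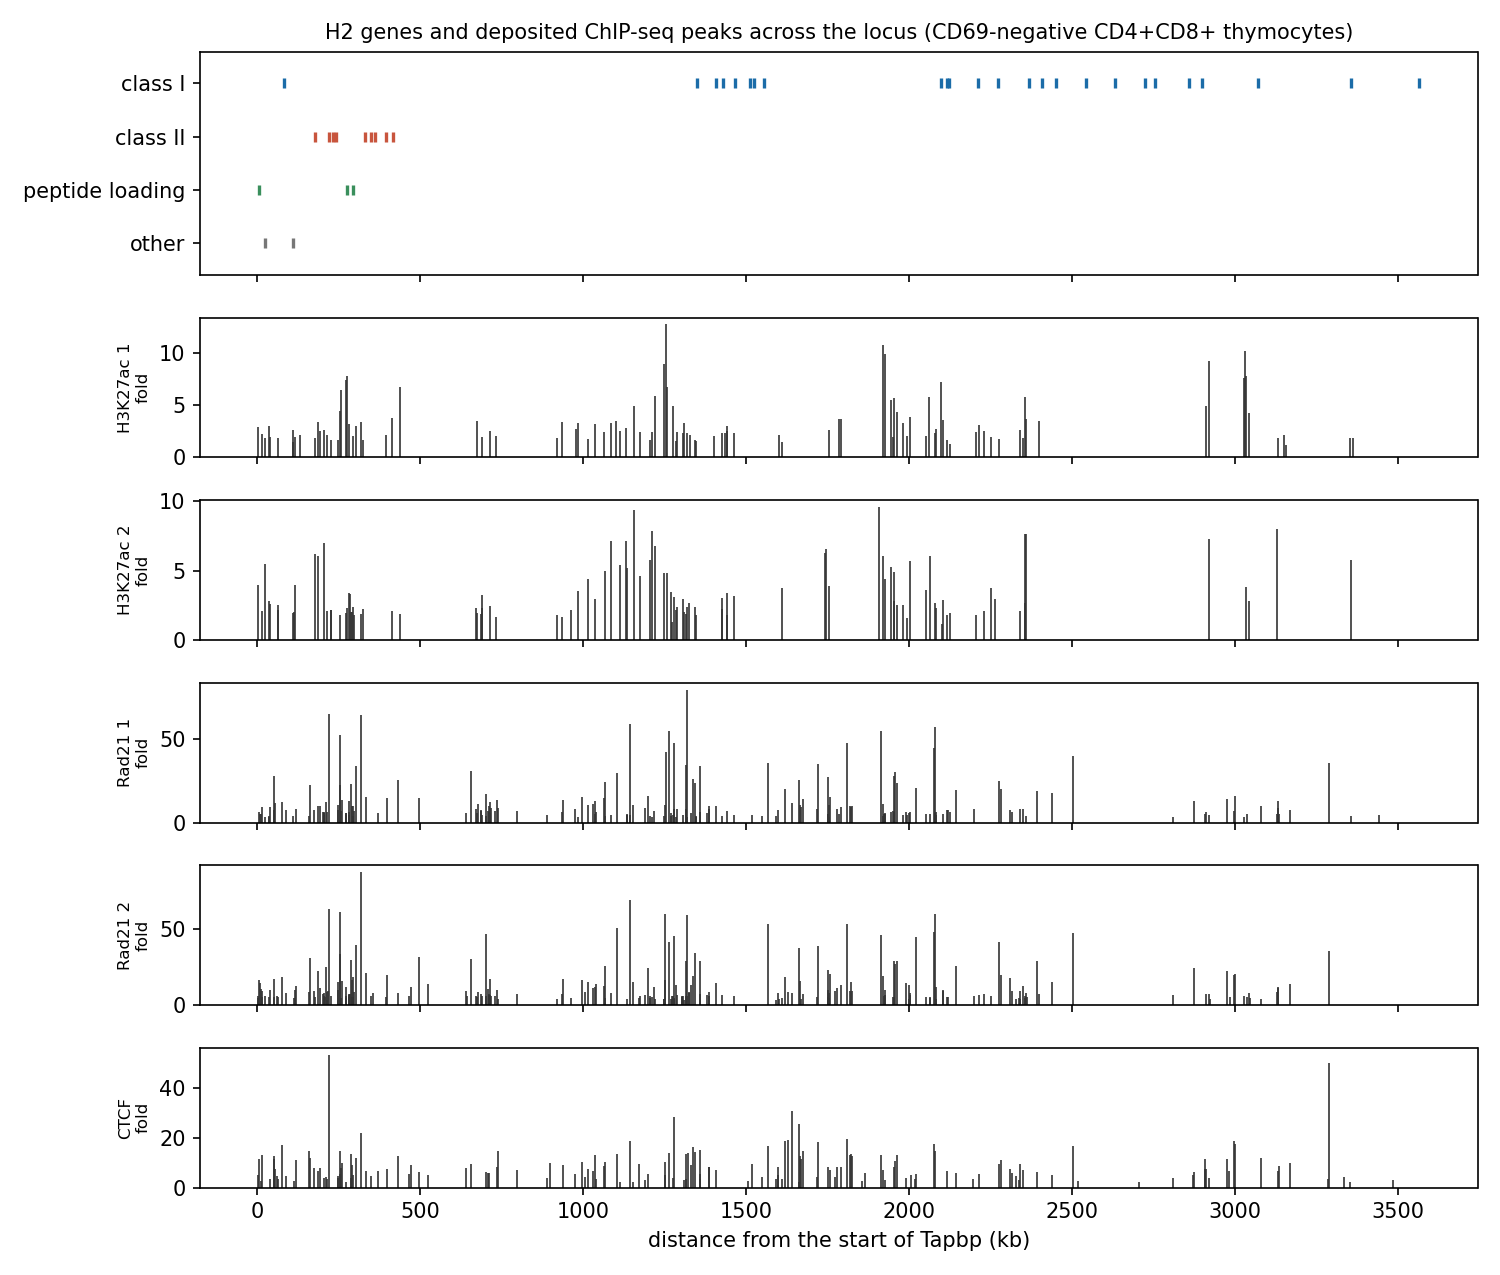
Position of the 39 members by class (top) and fold enrichment of each peak in the 5 lists (below) along the locus, in kb from the start of Tapbp. Class II genes sit together within 500 kb of the start, next to tall Rad21 and CTCF peaks. The right part, with most M genes, has fewer peaks than the rest of the locus.

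Peak density differed between stretches of members and the gaps between them. The first stretch, from Tapbp to H2-Ke6 (112.2 kb, with H2-K1), had 71.3 shared H3K27ac regions, 89.2 shared Rad21 regions and 115.9 CTCF peaks per Mb. The stretch with all 9 class II genes, from H2-Oa to H2-Eb2 (247.9 kb), had 52.4 shared H3K27ac regions, 125.1 shared Rad21 regions and 92.8 CTCF peaks per Mb. It also holds Tap1, Tap2 and other genes. The stretch from H2-D1 to H2-Q10 (211.8 kb) had 23.6, 37.8 and 42.5 per Mb, and that from H2-T24 to H2-T3 (184.6 kb) had 32.5, 27.1 and 21.7. The stretch of the M group (1199 kb) had 4.17, 14.2 and 20.8 per Mb, against 6.15, 11.7 and 13.4 over chromosomes 1 to 19 and X. The class III gap between H2-Eb2 and H2-D1, which has no member, had 32.5, 61.8 and 47.7 per Mb. The gaps further on were denser in Rad21 and CTCF than the stretches of members beside them. That between H2-Q10 and H2-T24 had 26.4, 75.3 and 71.5 per Mb, and that between H2-T3 and H2-M10.2 had 31.9, 74.5 and 85.2.

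**Figure D4:**
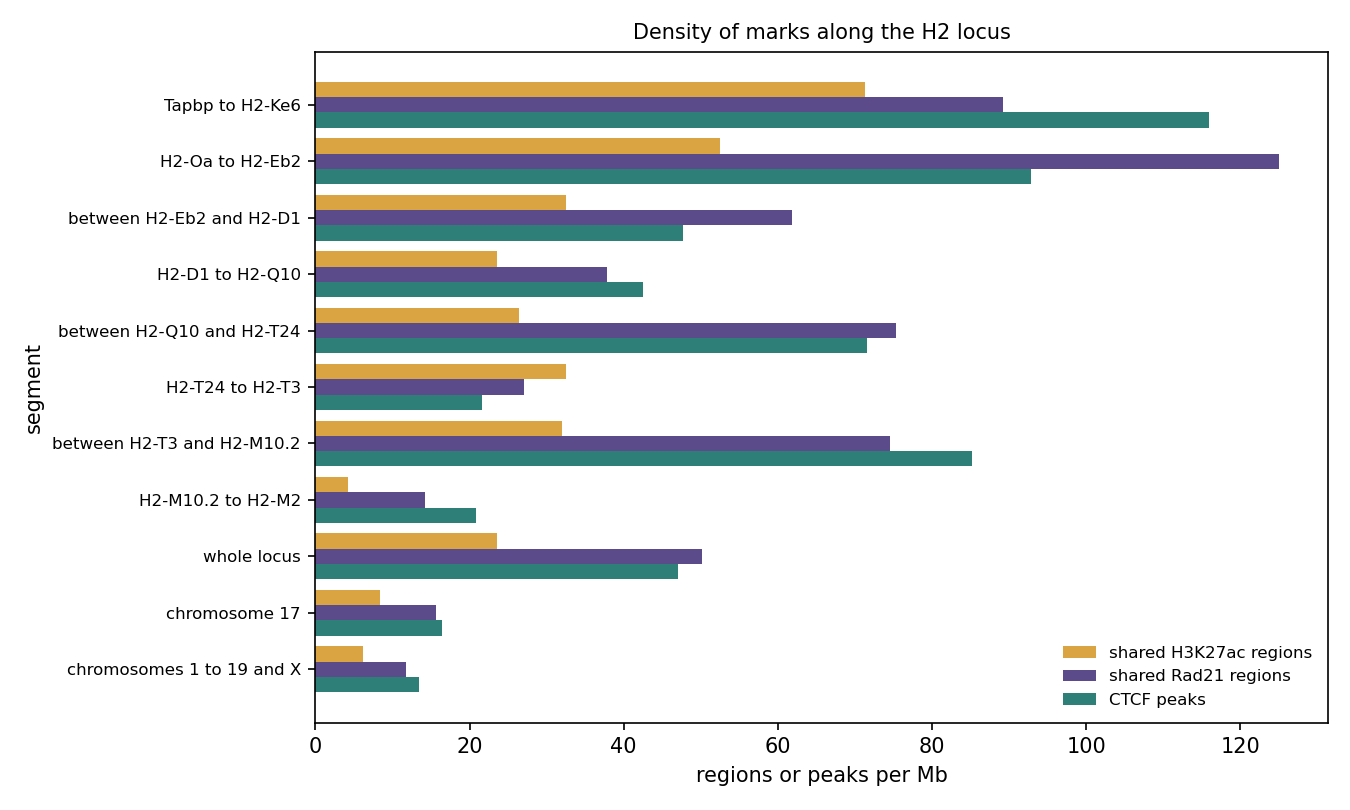
Number per Mb of shared H3K27ac regions, shared Rad21 regions and CTCF peaks in 8 segments of the locus, in the whole locus, on chromosome 17 and over chromosomes 1 to 19 and X. The segment from H2-Oa to H2-Eb2 has 125.1 shared Rad21 regions per Mb, and that from H2-M10.2 to H2-M2 has 14.2.

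The strongest cohesin sites of the locus lay mostly away from the members' promoters. Ranked by the worse of both replicates, the first was at H2-DMa and the next lay 3733 bp from a TSS of H2-Ob (chr17:34371891-34372322), with Rad21 folds of 63.999 and 87.4, a CTCF fold of 21.99 and H3K27ac. The third was in an intron of Ddah2 (chr17:35196256-35197061), with Rad21 folds of 58.8 and 69.3. The remaining 3 named by rank were intergenic near Gm20508 (chr17:36133892-36134561, 57.3 and 59.6), in an intron of Atp6v1g2 (chr17:35372900-35373687, 79.5 and 59.3) and intergenic 12576 bp from Psmb9 (chr17:34307501-34308739, 52.4 and 60.8). Each of these 6 lay on a CTCF peak.

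**Figure D5:**
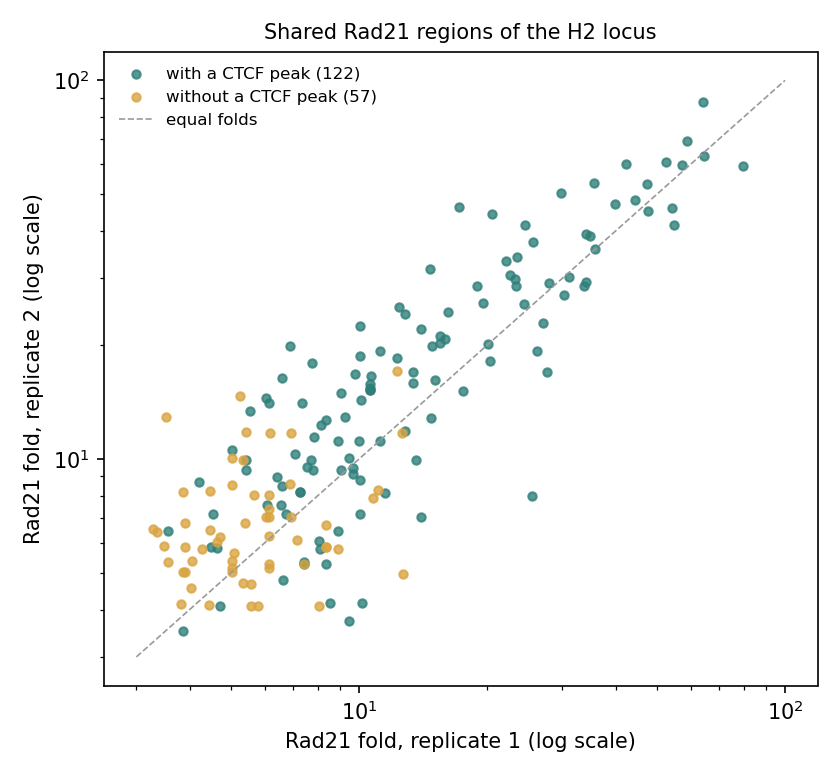
Rad21 fold of the 179 shared regions of the locus in replicate 1 (horizontal, log scale) and replicate 2 (vertical, log scale), for 122 regions with a CTCF peak (green) and 57 without (yellow). The tallest regions in both replicates have a CTCF peak, and the dashed line marks equal folds.

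The tallest CTCF peaks of the locus were at H2-DMa (53.5), near Olfr94 (chr17:37340591-37340909, 49.96), in exons of Cdsn (30.8) and Ltb (28.5), in an intergenic stretch at chr17:35715099-35715562 (25.5) and near H2-Ob (21.99). All 6 held shared Rad21. In the locus, shared Rad21 regions with CTCF and without H3K27ac had median folds of 11.3 and 15.6 in replicates 1 and 2, against 5.21 and 6.12 for those with H3K27ac and without CTCF. Elsewhere the same medians were 13.1 and 15.2, against 5.98 and 7.32.

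Wide stretches of H3K27ac, made by stitching shared regions within 12000 bp, took in the peptide loading genes and members of the other classes. The widest of the locus spanned 48107 bp over Tapbp, H2-Ke2 and 7 other genes (chr17:34045400-34093506). The next, of 41989 bp, covered the cytokine genes Lta, Tnf and Ltb and no member (chr17:35300910-35342898). The third, of 29412 bp, covered Tap1, Tap2, Psmb8 and Psmb9 (chr17:34322407-34351818) and held 12 shared Rad21 regions, 8 of them free of CTCF. The next in width, of 26107 bp, covered Brd2, H2-DMb2 and H2-DMa, which has no H3K27ac peak at its own promoter. It was followed by a stretch of 25343 bp over H2-T24, H2-T23, H2-T22 and Gm6034.

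Other genes of the class I pathway had H3K27ac at the promoter. Of 14 listed class I pathway genes, 13 had a protein-coding model. Shared H3K27ac was at 13 of 13, shared Rad21 at 10 and CTCF at 6, against 41.5%, 31.5% and 26.4% of all genes. B2m, which encodes the light chain of class I, had H3K27ac folds of 2.19 and 1.59 and Rad21 folds of 6.70 and 7.34 without CTCF. The immunoproteasome genes Psmb8, Psmb9 and Psmb10 had H3K27ac and Rad21, with Rad21 folds in replicate 1 of 12.7, 5.58 and 7.01. The Psmb9 folds are those of peaks also counted for Tap1. The tallest H3K27ac peak of Psmb8 in replicate 1 is also counted for Tap2. The pathway counts and the member counts thus share some peaks. Erap1, a peptide-trimming enzyme, had Rad21 folds of 29.9 and 40.7 with CTCF. Psme1, a proteasome activator subunit, had all 3 marks, Calr, the chaperone calreticulin, had H3K27ac and CTCF without shared Rad21, and Psme2 had H3K27ac alone. The class I transactivator gene Nlrc5, which the annotation used does not class as protein-coding, was not analysed here.

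Of 13 class II pathway genes, 8 had shared H3K27ac, 5 shared Rad21 and 0 CTCF, beside the same 41.5%, 31.5% and 26.4% of all genes. Ciita, the class II transactivator, Cd74, the invariant chain, and Ctss, a protease that degrades it, had no peak of any list. Other genes of the list had marks. Ctsl, the invariant chain protease of thymic epithelium, had H3K27ac folds of 2.24 and 4.15 and Rad21 folds of 5.58 and 9.72. The genes of the RFX complex, which binds the X box, had H3K27ac in each case, with folds of 3.17 and 9.43 at Rfx5, 1.99 and 2.87 at Rfxank and 1.56 and 1.97 at Rfxap. Nfya, a subunit of the Y box factor, had H3K27ac folds of 3.005 and 9.22. No test was made of the difference between the pathways.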

How the data were processed

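The 5 peak lists, narrow for Rad21 and CTCF and broad for H3K27ac, were deposited 1 per library on mm9, per the submitters' processing notes. These name CASAVA 1.82 and 1.84, Bowtie 1.0.0, Bowtie2 2.3.2, HiC-Pro 2.7.8, Juicer 0.7.5 and MACS2 2.1.0 without their roles. How peaks were thresholded, and how reads with several matches were handled, is not given in the sources used here. The deposited files give each peak a fold enrichment, a ratio computed by the authors' caller, and −log10 p and −log10 q values. The deposited score, which follows −log10 q or, for CTCF, −log10 p, was not used. Depth is unknown, since the lists hold no counts. The smallest −log10 q was 0.188 and 0.00455 for H3K27ac, 1.31 and 1.32 for Rad21 and 0 for CTCF.

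Gene models were GENCODE vM1 on NCBIM37, the assembly of mm9, and 0 peaks ran past a chromosome end. Overlaps needed 1 bp. The CTCF core consensus was sought 50 bp to each side of a summit, allowing 2 mismatches. RefSeq promoters (GRCm38.p6) matched 34 of 38 member symbols and were placed by exact match to NCBIM37. Letters were counted in the 33 with a promoter within 2000 bp of an annotated TSS. The scripts (Python 3.11.15, pandas 2.3.3, pysam 0.24.0) were tested on simulated lists, where 80 of 80 planted promoters were recovered with 0 false among 6036 genes.

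Every member with a peak within 2000 bp of a TSS was named with values. Across the locus the 6 best ranked Rad21 regions, the 6 tallest CTCF peaks and at least the 3 widest H3K27ac clusters were named, and of pathway lists up to 8 genes in list order. Values of some marker genes are not reported here. The members and lists were chosen with earlier results of these data known. No test was run, and no sample was left out but the Hi-C and input samples. Alternatives were promoters of 500 and 5000 bp, the 5′ TSS only, −log10 q of at least 5, overlap of 50% of the shorter peak, summits, repeat content, a flank of 100000 bp and each replicate left out.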

Additional observations from a re-analysis of the deposited data

How the results depend on the processing

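Of 71 values of class and locus results under an alternative, 50 stayed within 1.5 times the reported one. No paired analysis was possible because the results come from no test.

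Within 500 bp of a TSS, CTCF was at 1 class I gene and 1 class II gene and shared Rad21 at 1 class II gene. Within 5000 bp, class I genes had shared Rad21 in 8 cases and CTCF in 10, and class II genes shared H3K27ac in 5. When Rad21 and CTCF peaks, or peaks of every list, had to reach a −log10 q of 5, class I genes had shared Rad21 in 1 case and CTCF in 1, and the locus had 30.6 CTCF peaks per Mb. With that threshold in all lists, shared H3K27ac was at 0 class I and 0 class II genes, with 2.80 regions per Mb. A −log10 q of at least 1.3, chosen after seeing the data, left H3K27ac at 3 class I and 0 class II genes with 10.7 regions per Mb, and CTCF at 1 class I gene. With each replicate left out, every peak of the other list counted, with no overlap needed. For Rad21 this gave peaks at 4 to 7 class I genes, at 3 to 4 class II genes and at 61.7 to 69.5 per Mb. For H3K27ac it gave peaks at 7 to 8 class I genes, at 3 class II genes and at 29.7 to 30.8 per Mb. The causes were not tested. Of 544 values for the marks of single members, 481 were unchanged and 63 moved.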
